A study of Mus musculus with 24 samples.

Results

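Growth factor signalling was followed here through 57 genes of the FGF, PDGF, VEGF, EGF and HGF families, 42 ligands and 15 receptors, chosen by gene name alone from the 28109 genes of a mouse RNA-seq series. They comprised 22 FGFs with 5 FGF receptors, 4 PDGFs with 2 receptors, and 5 VEGF family ligands with 3 receptors. The others were 10 EGF family ligands with 4 receptors, and Hgf with its receptor Met. Ligands were counted by gene name, so they include intracellular FGF homologues such as Fgf11 and Fgf13. Members that passed a filter on low counts were tested, 39 in C2C12 cells, 43 in primary myoblasts (PMs) and 44 when both were fitted together. The other 13 members (Fgf3, Fgf4, Fgf8, Fgf14, Fgf15, Fgf16, Fgf17, Fgf18, Fgf20, Fgf22, Fgf23, Nrg2 and Nrg3) had a highest count of 1 to 10 in any of the 24 libraries.

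A cell line and a primary culture of differentiating muscle cells were sequenced, each after transfection with a control siRNA (siControl, labelled as directed at luciferase) or with a mixture of siRNAs that target Tead1 and Tead4 (siTead1/4). C2C12 is an established mouse myoblast line, labelled as strain C3H, grown without matrigel in DMEM. PMs came from wild-type mice 3 to 4 weeks old, labelled as strain C57/B6, and were grown on matrigel in IMDM. RNA was taken a day after transfection, before the change of medium (day 0), and after 3 or 6 days in low horse serum. Each of the 12 groups had 2 biological replicates. Cell type, strain, medium and matrix differed together between the 2 systems and cannot be told apart. The libraries held 25453830 to 52784510 counted reads in C2C12 cells and 32571583 to 51110723 in PMs.

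The 5 families signal alike. A secreted or shed ligand brings a pair of receptor tyrosine kinase chains together, and the activated receptors feed the Ras-ERK and PI3K-Akt pathways through adaptors such as Frs2, Grb2 and Gab1, while Sprouty proteins and dual-specificity phosphatases feed back to restrain them. In muscle, FGFs and HGF are known to favour proliferation of myoblasts and satellite cells and to hold back differentiation, PDGF and VEGF ligands act on stromal and vascular cells, and neuregulin acts through Erbb2 and Erbb3 at the muscle membrane. Tead factors are DNA-binding proteins that recognise the MCAT motif.

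The labels were checked first against the silenced genes. Tead4 was at 64.2 and 59.5 CPM (read counts scaled to library size) in siControl PMs at day 0 and at 13.2 and 11.1 with siTead1/4, and it was called lower at all 3 days in PMs and at days 0 and 3 in C2C12 cells. Its log2 fold change was -2.21 in C2C12 cells and -2.36 in PMs at day 0, and it was not called in C2C12 cells at day 6. Tead1 was called lower in PMs at days 0 and 3. In C2C12 cells Tead1 was at 70.5 and 113 CPM with siControl at day 0 and at 28.9 and 4.50 with siTead1/4, a difference that did not pass the test (log2 fold change -2.46, SE 0.66, adjusted p = 0.168). A gene is called here when its adjusted p in edgeR's quasi-likelihood test is below 0.05 and its absolute log2 fold change exceeds 1, and CPM values were scaled across all 24 libraries. In C2C12 cells the 2 siTead1/4 libraries of a day correlated at 0.9898 to 0.9929 in log2 CPM, and the siControl libraries at 0.9948 to 0.9975. Muscle markers were present in all libraries. The summed level of 8 of them was 979 to 1109 CPM in siControl C2C12 cells at day 0 and 9745 to 10399 CPM in siControl PMs at day 0. Myog, which encodes the differentiation factor myogenin, was at 9.68 and 2.91 CPM in day 0 C2C12 cells and already at 960 and 1039 CPM in day 0 PMs.

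Promoter sequence is shown for a few members so that the changes below can be read beside it. RefSeq windows from 250 bases before to 50 after a gene start (build GRCm38.p6) were found for 42 of the 57 members. The other 15 had no window and were not searched. These were Erbb3, Ereg, Fgf1, Fgf8, Fgf15, Fgf16, Fgf17, Fgf20, Fgfr1, Figf, Hbegf, Nrg1, Nrg2, Pdgfb and Pdgfrb. The MCAT core CATTCC, searched on both strands, was in 14.7% of all 32851 windows and in 13.0% of the 54 member windows, those of Erbb2, Fgf3, Fgf11, Fgf12, Fgf14, Fgfr4 and Pdgfc. The E-box CAGCTG, the palindrome preferred by MyoD-family factors, was in 16.3% of all windows and 16.7% of member windows, those of Areg, Btc, Fgf11, Fgf13, Fgf14, Fgf21, Fgf22, Fgfr3 and Pgf. The motif matches did not overlap each other, and a match describes letters, not a bound site. The windows of 4 members follow, each read 5′ to 3′ on its gene's strand with matches to either motif in capitals. Fgfr4 (chr13:55152568-55152867, plus strand) is shown because its level moved in opposite directions in the 2 cell types and its window holds CATTCC. Fgf11 (chr11:69802231-69802530, minus strand) holds both motifs. Fgf21 (chr7:45615441-45615740, minus strand) is among the members with the largest rise in C2C12 cells. Erbb4 (chr1:69108010-69108309, minus strand) had the largest fold change with siTead1/4 and its window holds neither motif.
Fgfr4: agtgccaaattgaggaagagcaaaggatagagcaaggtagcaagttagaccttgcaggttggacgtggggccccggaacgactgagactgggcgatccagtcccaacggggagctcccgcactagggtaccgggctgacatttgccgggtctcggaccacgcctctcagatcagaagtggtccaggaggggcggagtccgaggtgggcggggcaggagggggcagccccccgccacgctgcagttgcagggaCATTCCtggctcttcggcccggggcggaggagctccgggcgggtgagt
Fgf11: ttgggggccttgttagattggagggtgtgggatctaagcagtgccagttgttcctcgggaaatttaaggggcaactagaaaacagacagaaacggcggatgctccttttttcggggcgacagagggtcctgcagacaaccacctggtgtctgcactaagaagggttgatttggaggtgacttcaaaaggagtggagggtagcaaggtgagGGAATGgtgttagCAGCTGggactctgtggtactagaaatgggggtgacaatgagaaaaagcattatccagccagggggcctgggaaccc
Fgf21: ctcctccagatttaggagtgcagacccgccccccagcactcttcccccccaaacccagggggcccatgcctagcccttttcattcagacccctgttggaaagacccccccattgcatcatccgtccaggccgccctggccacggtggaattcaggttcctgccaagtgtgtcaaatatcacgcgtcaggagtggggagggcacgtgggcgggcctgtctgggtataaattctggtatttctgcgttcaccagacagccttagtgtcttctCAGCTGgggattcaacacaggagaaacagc
Erbb4: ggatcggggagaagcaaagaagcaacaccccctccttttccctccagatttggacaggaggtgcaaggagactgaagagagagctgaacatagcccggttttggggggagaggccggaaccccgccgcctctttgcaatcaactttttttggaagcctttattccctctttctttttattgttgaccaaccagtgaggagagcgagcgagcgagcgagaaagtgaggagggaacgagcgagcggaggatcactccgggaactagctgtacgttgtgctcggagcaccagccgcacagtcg

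Levels in siControl cells came first. Compared per kilobase of gene length, the members of highest mean level over the 6 siControl libraries were the same in both cell types. By family the ligand and receptor were Fgf21 and Fgfrl1 (FGF), Pdgfa and Pdgfrb (PDGF), Vegfa and Flt1 (VEGF), and Hbegf and Erbb3 (EGF). These means pool 3 days, and the order differed at day 0. In C2C12 cells Fgf21 was then at a mean of 0.308 CPM and Fgf7 at 16.0 CPM, and Erbb3 was at 6.05 CPM and Erbb2 at 57.1 CPM. In PMs Fgfr4 was at 172 CPM and Fgfrl1 at 41.3 CPM at day 0. Fgfrl1, a decoy-like FGF receptor without a kinase domain, was at a mean of 52.3 CPM per kb in C2C12 cells and 49.8 in PMs. Fgfr1, the main signalling FGF receptor of myoblasts, was at 38.9 and 30.8 CPM per kb. Vegfa was at 46.9 and 28.4 CPM per kb. Its receptor Flt1 was at 0.154 and 0.200 CPM per kb, so the VEGF receptors were the receptors of lowest level apart from Erbb4, at 0.000276 and 0.0229 CPM per kb. Erbb2 and Erbb3, which form the neuregulin receptor, were at 27.9 and 35.4 CPM per kb in C2C12 cells and at 30.8 and 42.0 in PMs. Met was at 15.4 and 21.4 CPM per kb.

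**Figure D1:**
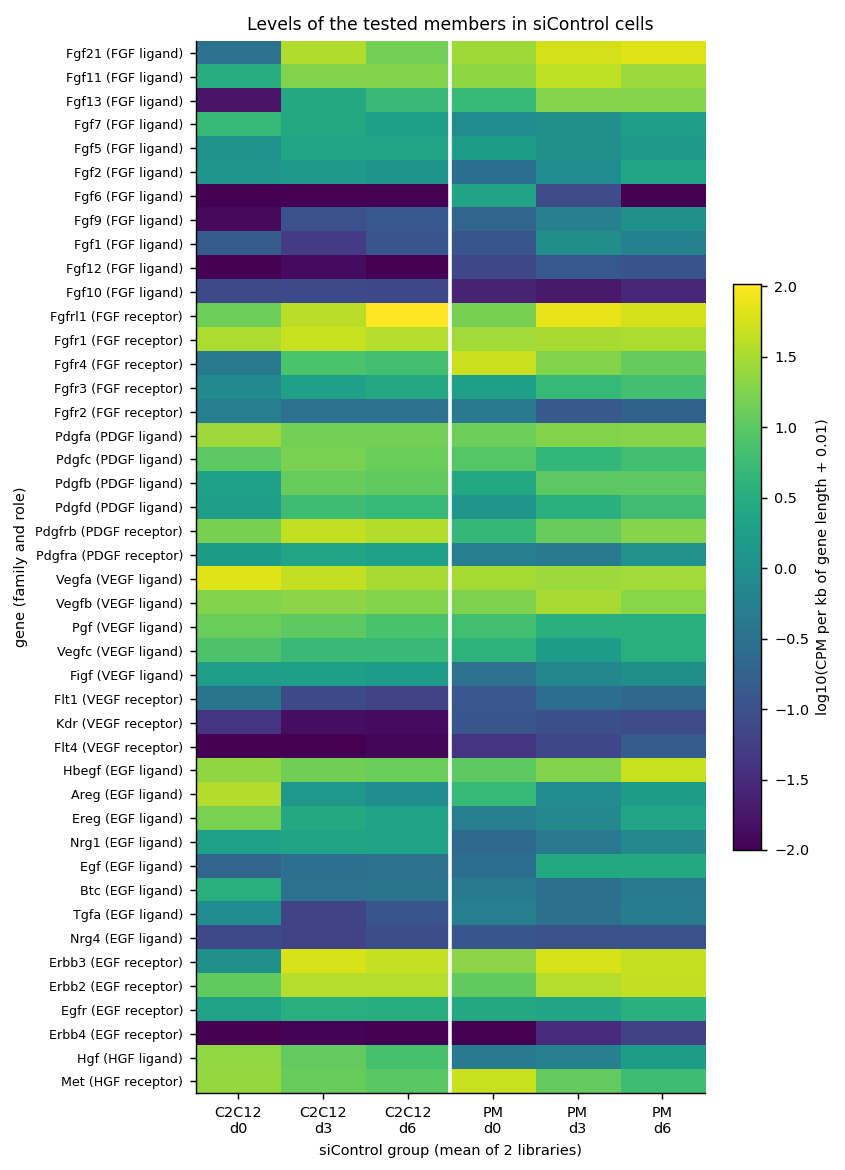
Mean level of each of the 44 jointly tested members in the 6 siControl groups, as log10 of CPM per kb of gene length plus 0.01, with ligands and receptors grouped by family. Fgfrl1, Fgfr1, Vegfa, Erbb2 and Erbb3 are bright in most columns, the VEGF receptors and Erbb4 are dark, Hgf is brighter in C2C12 cells than in PMs on each day, and the EGF ligand Ereg is so at days 0 and 3.

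PMs and C2C12 cells differed at 23 of the 44 tested members at day 0. Of these, 10 were higher in PMs, where 16.3% of all tested genes were called higher, and 13 were lower, against 10.5% of all genes. Of the 8 muscle markers 7 were also called higher in PMs, Myog among them. The part of this difference in stage in the member values was not tested. The members higher in PMs were the FGF genes Fgf6, Fgf9, Fgf11, Fgf12, Fgf13 and Fgf21 and the receptors Erbb3, Fgfr3, Fgfr4 and Flt4. Fgf12 and Flt4 had few counts, with means of 0.201 and 0.265 CPM in PMs and 0 in C2C12 cells. Fgfr4 (ENSMUSG00000005320, mm9 chr13:55254001-55270120), an FGF receptor of myoblasts and regenerating fibres, was at 187 and 157 CPM in PMs and at 1.63 and 1.16 CPM in C2C12 cells, a log2 difference of 6.97 (SE 0.66, adjusted p = 3.1e-07). Fgf6 (ENSMUSG00000000183, mm9 chr6:126965560-126974736), a muscle-restricted FGF, had no count in any C2C12 library and 130 and 94 counts in day 0 PMs, at least 41.5-fold higher than the level of 3 counts in each library. Erbb3 was at 128 and 124 CPM in PMs and at 5.66 and 6.45 CPM in C2C12 cells. Schwann cell markers, for which Erbb3 is also known, summed to 22.9 and 16.9 CPM in these PM libraries and to 22.4 and 17.9 CPM in the C2C12 libraries. Their most abundant gene was Mbp (8.73 to 12.4 CPM) in the PMs and Ngfr (15.5 to 19.7 CPM) in the C2C12 cells.

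The members lower in PMs at day 0 were led by Hgf (ENSMUSG00000028864, mm9 chr5:16059368-16125257), the ligand of Met. Hgf was at 43.9 and 82.2 CPM in C2C12 cells and at 1.27 and 1.07 CPM in PMs (log2 difference -5.74, SE 0.44, adjusted p = 2.1e-08). Ereg, Areg, Btc, Hbegf and Nrg1, all ligands of EGF receptor family members, were lower as well, together with Fgf2, Fgf7, Fgf10, Figf, Vegfa, Pdgfra and Pdgfrb. Fgf10 had few counts in both, with means of 0.324 CPM in C2C12 cells and 0.0706 CPM in PMs. Epiregulin (Ereg) was at 50.2 and 83.3 CPM in C2C12 cells and at 2.20 and 2.08 CPM in PMs. The call on Hbegf was lost on leaving out any 1 of the 4 libraries (adjusted p 0.0911 to 0.140), and that on Vegfa without the first C2C12 library, where its log2 difference was -0.93.

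Differentiation in siControl cells raised some members of the FGF, PDGF and EGF families in both cell types, while of 8 tested EGF family ligands 4 fell in C2C12 cells and 4 rose and 1 fell in PMs at day 6. In C2C12 cells at day 3 against day 0, 13 of 39 members rose, against 16.0% of all genes called higher, and 7 fell, against 12.7% (28.7% in either direction). At day 6 against day 0, 13 rose and 9 fell, against 17.1% and 14.0% (31.1% in either direction). In PMs 14 of 43 rose and 7 fell at day 3, where 17.5% and 14.9% of all genes did (32.3% in either direction), and 19 rose and 6 fell at day 6, where 20.2% and 15.3% did (35.5% in either direction). The median log2 fold change of the tested members at day 6 was 0.07 in C2C12 cells and 0.97 in PMs, and that of all tested genes was -0.01 and 0.03. In bulk RNA, a change in the share of cells of one kind and a change in RNA per cell cannot be told apart.

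Of the 13 members that rose in C2C12 cells at day 6, 10 also rose in PMs (76.9%), which was 52.6% of the 19 risers in PMs: Erbb2, Erbb3, Fgf9, Fgf13, Fgf21, Fgfr3, Fgfrl1, Pdgfb, Pdgfd and Pdgfrb. Over all genes, 58.9% of those that rose in C2C12 cells at day 6 also rose in PMs, which was 47.0% of the risers in PMs. Areg and Met fell in both, which was 22.2% of the 9 that fell in C2C12 cells and 33.3% of the 6 in PMs. Over all genes these shares of the fallers were 62.5% and 54.5%. Fgfr4 rose in C2C12 cells and fell in PMs, and Ereg and Hgf fell in C2C12 cells and rose in PMs.

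**Figure D2:**
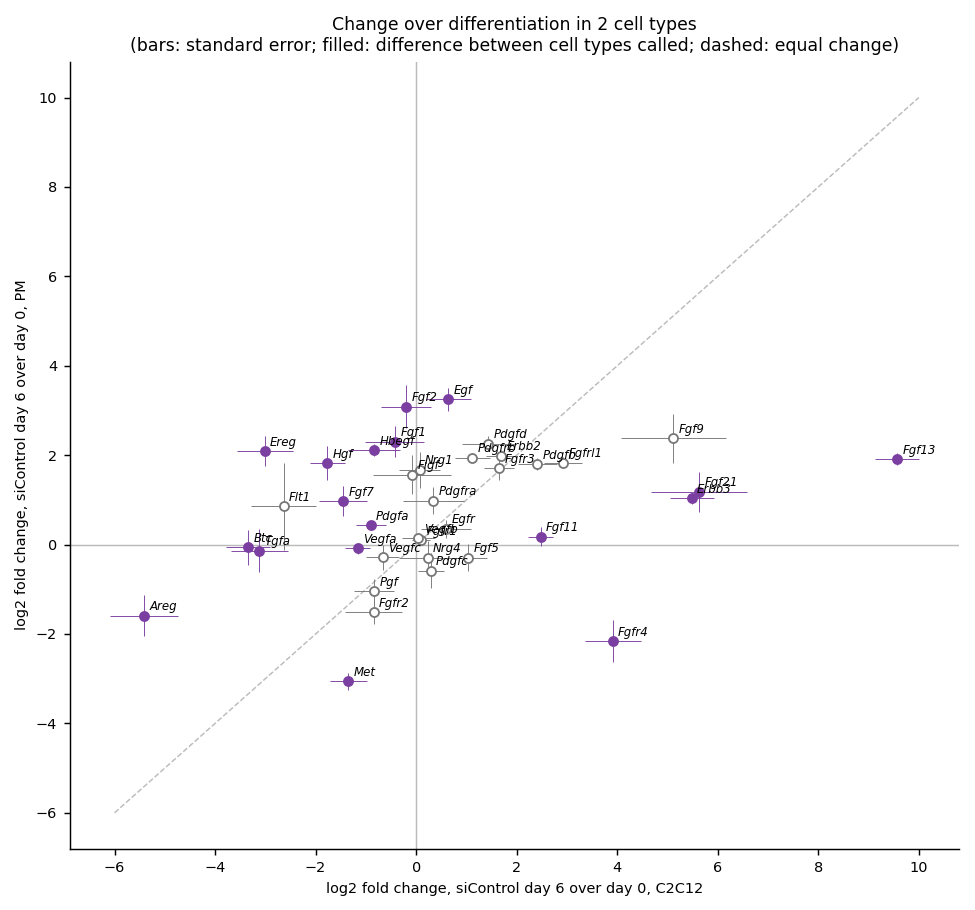
Log2 fold change of siControl cells at day 6 over day 0 in C2C12 cells (horizontal) and PMs (vertical) for the 38 members tested in both, with standard errors as bars, filled points for members whose change differed between cell types in the joint test, and a dashed line of equal change. Fgf13, Fgf21 and Erbb3 lie far to the right, Ereg and Hgf lie in the upper left, and Fgfr4 is in the lower right.

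Among FGF genes other than receptors, the largest rises in C2C12 cells were those of Fgf13 and Fgf21. Fgf13 (ENSMUSG00000031137, mm9 chrX:56315322-56821248), an intracellular FGF homologue that binds sodium channels and is not secreted, had 1 count in each siControl library at day 0 and reached 8.75 and 10.7 CPM at day 3 and 18.9 and 19.8 CPM at day 6. That was 882-fold higher at day 6 (95% counting interval 244 to 7289). In PMs Fgf13 started at 16.9 and 19.6 CPM and rose to 69.4 and 74.1 CPM, with a log2 fold change of 1.91 (SE 0.13, adjusted p = 8.1e-07). Within each cell type, both day 6 libraries lay above both day 0 libraries.

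Fgf21 (ENSMUSG00000030827, mm9 chr7:52869277-52870860), a circulating metabolic FGF that muscle can secrete, was at 0.563 and 0.0533 CPM in day 0 C2C12 cells, at 28.2 and 35.8 CPM at day 3 and at 16.7 and 11.5 CPM at day 6. Its log2 fold change was 6.81 at day 3 (SE 0.99, adjusted p = 5.1e-04). In PMs Fgf21 was at 24.8 and 27.0 CPM at day 0 and at 31.0 and 91.7 CPM at day 6, and that rise (log2 fold change 1.18, adjusted p = 0.041) was 0.19 without the second day 6 library and had an adjusted p of 0.147 and 0.115 without the first or the second day 0 library. Fgf9 rose in both cell types, from 1 count over both C2C12 libraries at day 0 to 0.385 and 0.601 CPM at day 6, and from 0.466 and 1.18 CPM to 3.04 and 5.74 CPM in PMs. Fgf11, another intracellular homologue, rose in C2C12 cells from 10.2 and 8.80 CPM to 47.3 and 61.3 CPM at day 6.

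Fgf1, Fgf2 and Fgf6 moved in PMs. Acidic FGF (Fgf1) was at 0.551 and 0.451 CPM at day 0 and at 4.24 and 4.27 CPM at day 3 (log2 fold change 3.01, SE 0.35, adjusted p = 3.3e-05), while in C2C12 cells it was at 0.563 and 0.640 CPM at day 0 and at 0.118 and 0.243 CPM at day 3. Basic FGF (Fgf2), a mitogen of myoblasts, was at 0.403 and 0.564 CPM in PMs at day 0 and at 5.92 and 2.64 CPM at day 6 (log2 fold change 3.09, SE 0.47, adjusted p = 2.3e-04). Fgf6 fell in PMs from 130 and 94 counts at day 0 to 0 at day 6, at least 27.8-fold lower than the day 0 level against 3 counts in each library. Its 2 day 3 libraries were at 0.0281 and 0.152 CPM.

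FGF receptors did not move as one. Fgfrl1 (ENSMUSG00000008090, mm9 chr5:109123248-109135969) rose in C2C12 cells from 36.6 and 33.8 CPM at day 0 to 267 and 281 CPM at day 6 and in PMs from 41.1 and 41.4 CPM to 143 and 164 CPM. Fgfr3 rose in both cell types as well, with log2 fold changes of 1.66 and 1.70 at day 6. Fgfr2 fell in PMs (log2 fold change -1.52 at day 6) and had a log2 fold change of -0.85 with an adjusted p of 0.249 in C2C12 cells, and the difference between cell types did not pass the test (adjusted p = 0.608). Fgfr4 was at 26.1 and 24.9 CPM in C2C12 cells at day 3, up from 1.63 and 1.16 CPM, and at 40.5 and 82.7 CPM in PMs at day 3, down from 187 and 157 CPM. The log2 fold changes were 4.16 (SE 0.56, adjusted p = 3.3e-04) and -1.54 (SE 0.46, adjusted p = 0.0139). The fall in PMs at day 3 missed the threshold without the first day 0 library or without the first day 3 library (adjusted p = 0.0617 and 0.109), and at day 6, with libraries at 23.7 and 56.7 CPM, it was called at -2.16. The log2 fold change of Fgfr1 at day 6 was 0.09 in C2C12 cells and 0.10 in PMs, with no call.

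Of the EGF family ligands, Areg, Btc, Ereg and Tgfa fell in C2C12 cells. Areg (ENSMUSG00000029378, mm9 chr5:91568641-91577458), which encodes amphiregulin, fell from 41.9 and 43.9 CPM at day 0 to 0.694 and 1.44 CPM at day 6 in C2C12 cells, a log2 fold change of -5.41 (SE 0.68, adjusted p = 1.8e-04). In PMs it fell from 5.60 and 5.92 CPM to 0.729 and 1.34 CPM at day 3, and its day 6 libraries were at 1.04 and 2.97 CPM, a fall that missed the threshold without the first of them (adjusted p = 0.0663). Betacellulin (Btc) went from 6.78 and 11.6 CPM to 0.771 and 1.10 CPM in C2C12 cells at day 6, and TGF-alpha (Tgfa) from 3.24 and 3.38 CPM to 0.270 and 0.535 CPM. Their log2 fold changes were -3.35 (SE 0.44) and -3.12 (SE 0.56).

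In PMs the EGF ligands that rose by day 6 were Egf, Ereg, Hbegf and Nrg1. Egf (ENSMUSG00000028017, mm9 chr3:129380493-129458240) was at 1.27 and 1.32 CPM at day 0 and at 12.3 and 13.6 CPM at day 6 (log2 fold change 3.25, SE 0.26, adjusted p = 2.2e-06), while in C2C12 cells all 6 siControl libraries were between 0.711 and 1.50 CPM. Ereg went from 2.20 and 2.08 CPM to 11.8 and 7.43 CPM (log2 fold change 2.09, SE 0.33), while in C2C12 cells it fell from 50.2 and 83.3 CPM to 4.61 and 12.5 CPM (-3.01, SE 0.56). Hbegf, the heparin-binding EGF-like factor, rose between days 3 and 6, from 38.4 and 46.3 CPM to 122 and 99.7 CPM. Neuregulin 1 (Nrg1) was at 0.784 and 0.704 CPM at day 0 and at 3.27 and 1.73 CPM at day 6.

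Erbb2 and Erbb3 rose in both cell types. Erbb3 (ENSMUSG00000018166, mm9 chr10:128004579-128026708) went from 5.66 and 6.45 CPM at day 0 to 311 and 397 CPM at day 3 in C2C12 cells (log2 fold change 5.83, SE 0.44, adjusted p = 1.0e-05) and from 128 and 124 CPM to 364 and 357 CPM in PMs. Erbb2 rose with log2 fold changes of 1.69 and 1.99 at day 6. Egfr was at 22.5 to 41.5 CPM in siControl C2C12 cells and at 23.1 to 46.8 CPM in siControl PMs and was not called at any day. Erbb4 (ENSMUSG00000062209, mm9 chr1:68078760-69154633), the fourth receptor, had no count in day 0 PMs and 0.518 and 0.685 CPM at day 6, at least 8.28-fold higher than 3 counts in each library would give. In C2C12 cells it had 1 count over all 6 siControl libraries.

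PDGF members that rose were Pdgfb, Pdgfd and Pdgfrb in both cell types. Pdgfb (ENSMUSG00000000489, mm9 chr15:79826330-79845238), a ligand of both PDGF receptors, rose from 5.26 and 6.43 CPM to 34.5 and 34.8 CPM at day 3 in C2C12 cells and from 8.35 and 7.89 CPM to 25.3 and 33.5 CPM in PMs, with log2 fold changes of 2.52 (SE 0.39) and 1.80 (SE 0.13). Pdgfrb was at 85.8 and 86.8 CPM in C2C12 cells at day 0 and at 158 and 228 CPM at day 6, and its call at day 6 was lost without any 1 of 3 libraries (adjusted p 0.0932 to 0.129 without either day 0 library or the second day 6 library). In PMs it rose from 27.7 and 23.6 CPM to 105 and 102 CPM. Pdgfra, the receptor that marks fibro-adipogenic cells, rose in PMs between days 3 and 6, from 3.31 and 2.68 CPM to 9.54 and 4.79 CPM. Pdgfa, the PDGF ligand of highest level, was at 77.1 and 90.7 CPM in C2C12 cells at day 0 and at 38.3 and 53.7 CPM at day 6, and in PMs at 46.4 and 37.6 CPM and then at 59.5 and 58.9 CPM. Its log2 fold change at day 6 was -0.91 in C2C12 cells and 0.43 in PMs, past the p threshold and inside the fold threshold in both.

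Fibroblast markers rose alongside Pdgfrb in both cell types. Between days 0 and 6, 4 of 5 tested fibroblast markers rose in C2C12 cells (17.1% of all genes) and 4 of 6 in PMs (20.2%). Their summed level went from 836 and 1337 CPM to 2584 and 2650 CPM in C2C12 cells and from 553 and 566 CPM to 3867 and 2798 CPM in PMs. Col3a1 was the most abundant in C2C12 cells and in day 0 PMs, and Col1a1 in day 6 PMs (1796 to 2840 CPM, from 47.3 to 74.7 CPM at day 0). Lum had no count in the 4 day 0 C2C12 libraries. Of 4 tested pericyte markers, Abcc9, Anpep and Cspg4 rose and Rgs5 fell in PMs. The sum of all 5 listed went from 133 and 148 CPM, with Rgs5 the most abundant, to 298 and 299.6 CPM, with Abcc9 the most abundant. In C2C12 cells 1 of 3 tested pericyte markers rose (Abcc9), and the sum was 89.4 and 82.4 CPM at day 0 and 97.4 and 85.2 CPM at day 6. Col1a1, Dcn and Lum rose by day 6 both in PMs and in C2C12 cells, which are a myoblast line. The part of other cell types in the PDGF receptor values of PMs was not tested.

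HGF and VEGF members went apart. Met (ENSMUSG00000009376, mm9 chr6:17413800-17523980) fell in PMs from 321 and 332 CPM at day 0 to 41.5 and 40.6 CPM at day 6 (log2 fold change -3.06, SE 0.18, adjusted p = 3.8e-07). In C2C12 cells it fell from 144 and 194 CPM to 64.0 and 72.1 CPM (-1.35, SE 0.37), and the adjusted p rose to between 0.052 and 0.084 without the second day 0 library or without either day 6 library. Hgf fell in C2C12 cells from 43.9 and 82.2 CPM to 18.1 and 19.9 CPM and rose in PMs from 1.27 and 1.07 CPM to 4.08 and 4.63 CPM. Vegfa fell in C2C12 cells by day 6, from 286 and 200 CPM to 115 and 108 CPM (log2 fold change -1.17, and -0.88 without the first day 0 library), and its log2 fold change was -0.09 in PMs. Figf, which encodes VEGF-D, rose in PMs with a log2 fold change of 1.56, while Pgf, which encodes placental growth factor, fell with one of -1.05. Flt1 fell in C2C12 cells, with a log2 fold change of -2.64 at day 6 that missed the threshold without the first day 6 or the second day 0 library (adjusted p = 0.0718 and 0.0652).

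Between days 3 and 6 no member was called in C2C12 cells by DESeq2 or by edgeR with the filter on low counts. There edgeR called 0.00% of all genes, and 2 members had an unadjusted p below 0.05. Without the filter it called 2 members. In PMs Ereg, Hbegf, Hgf and Pdgfra rose, against 2.22% of all genes called higher, and none fell, against 0.582% (2.80% in either direction). Fitted to only the libraries of this comparison, edgeR called 1 member where 4 are reported here. Ereg and Pdgfra were not followed in the fits that left out a library. Hgf lost its call without any 1 of the 4 libraries (adjusted p 0.079 to 0.241). Over the same days 5 of 6 fibroblast markers (Col3a1, Dcn, Lum, Pdgfrl and Thy1) rose in PMs, with a median log2 fold change of 1.48, and their part in the rise of Hgf and Pdgfra was not tested.

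The change over differentiation itself differed between cell types for 13 of 44 members at day 3, against 11.2% of all genes (6 more positive in PMs, against 3.79%, and 7 more negative, against 7.44%), and for 18 at day 6, against 12.7%. At day 6 the change was more positive in PMs for 12 members (Areg, Btc, Egf, Ereg, Fgf1, Fgf2, Fgf7, Hbegf, Hgf, Pdgfa, Tgfa and Vegfa), where 5.27% of all genes were called in that direction. All 12 were ligands, as were 29 of the 44 tested members. Of them Areg, Btc, Ereg, Fgf2, Fgf7, Hbegf, Hgf and Vegfa had been called lower in PMs than in C2C12 cells at day 0. The change was more negative for 6 (Erbb3, Fgf11, Fgf13, Fgf21, Fgfr4 and Met), against 7.43% of all genes. Fgfr4 differed by -6.05 (SE 0.79, adjusted p = 4.2e-05) and Ereg by 5.14 (SE 0.70, adjusted p = 6.55e-05). Fgf13 differed by -7.62 (SE 0.42, adjusted p = 1.6e-08). The Fgf13 value rests on 1 count in each siControl C2C12 library at day 0, so its size is known only roughly. Leaving out 1 library ended the call at day 6 for Fgf1 (adjusted p = 0.063), Fgf21 (0.0721) and Met (0.065), each without 1 of the C2C12 libraries. It did so for Fgf7 (0.0519 to 0.0787), Pdgfa (0.0541 to 0.0555), Tgfa (0.0728 to 0.09) and Vegfa (0.0539 to 0.0948) without any of 2 to 4 libraries, and at day 3 for Pdgfa (0.0623 to 0.0842) and Tgfa (0.0537 to 0.0771). These differences share their day 0 libraries with the comparison of day 0 cells given above. Ereg, Fgf5, Fgf11 and Pdgfc were not followed in the fits that left out a library, so whether their calls held is not known.

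With silencing of Tead1 and Tead4, between 0 and 6 members were called in each comparison. In C2C12 cells 1 of 39 members rose and none fell at day 0, against 0.137% and 0.301% of all genes, and 1 rose and none fell at day 3, against 0.190% and 1.08%. None was called at day 6 by edgeR, where 0.0131% and 0.0327% of all genes were called, while 10 members had an unadjusted p below 0.05 and DESeq2 called 1 (Fgfrl1). In PMs 3 of 43 members rose and none fell at day 0, against 1.50% and 1.10% of all genes (2.60% in either direction). At day 3, 4 rose and 2 fell, against 2.10% and 1.20% (3.30% in either direction). At day 6, 3 rose and 1 fell, against 0.465% and 0.279% (0.743% in either direction). These counts are those of the fit without a replicate block and with the filter on low counts. A fit with the block called 8 members in PMs at day 0, Fgf2 and Fgf21 lower among them. It called more members at day 3 as well. In C2C12 cells DESeq2 called 4 members at day 0 and 6 at day 3, and the fit without the filter called 10 and 6, and 4 at day 6. In PMs DESeq2 called 7 at day 0, and the fit without the filter called 8 at day 0 and 10 at day 3. Fitted to only the libraries of each comparison, edgeR called none in C2C12 cells at days 0 and 3 or in PMs at day 6. That fit called 8 in PMs at day 0. Among fibroblast markers, Dcn (40.2 to 64.3 CPM with siControl, 8.37 to 10.6 CPM with siTead1/4) and Lum were lower in PMs at day 6. None of the 6 was called at days 0 and 3. Of the 8 muscle markers only Myh3 was called with siTead1/4, lower in C2C12 cells at day 3. Their sum there was 15205.8 and 17680.5 CPM with siControl and 5992.67 and 7876.37 CPM with siTead1/4. The Schwann cell marker Ngfr was called lower in C2C12 cells at day 0, and the macrophage marker Itgam at day 3. The endothelial marker Tek was called higher in PMs at day 0. The part of these marker changes in the member values was not tested. Each siTead1/4 comparison used the siControl libraries of its own day, which also serve the differentiation comparisons above.

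Pdgfb was the member called higher with siTead1/4 at every day in PMs in the fit without a replicate block. It was at 8.35 and 7.89 CPM with siControl and 24.9 and 25.6 CPM with siTead1/4 at day 0. The day 3 values were 25.3 and 33.5 CPM against 71.0 and 71.4 CPM, and the day 6 values 28.4 and 30.8 CPM against 62.7 and 62.2 CPM. In every pair of groups the siTead1/4 libraries were the higher, with log2 fold changes of 1.63 (SE 0.13, adjusted p = 3.8e-04), 1.27 (SE 0.13, adjusted p = 6.9e-04) and 1.08 (SE 0.13, adjusted p = 0.0043). The day 6 call was lost when only the 4 libraries of that comparison were fitted (adjusted p = 0.0742).

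In C2C12 cells Pdgfb was at 5.26 and 6.43 CPM with siControl and at 23.3 and 48.4 CPM with siTead1/4 at day 0 (log2 fold change 2.61, SE 0.39, adjusted p = 0.0275). Without either siControl library or the second siTead1/4 library the adjusted p was 0.0624 to 0.221. At days 3 and 6 its log2 fold change was 0.90 and 1.19 with adjusted p of 0.28 and 0.42, and the libraries still did not overlap.

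**Figure D3:**
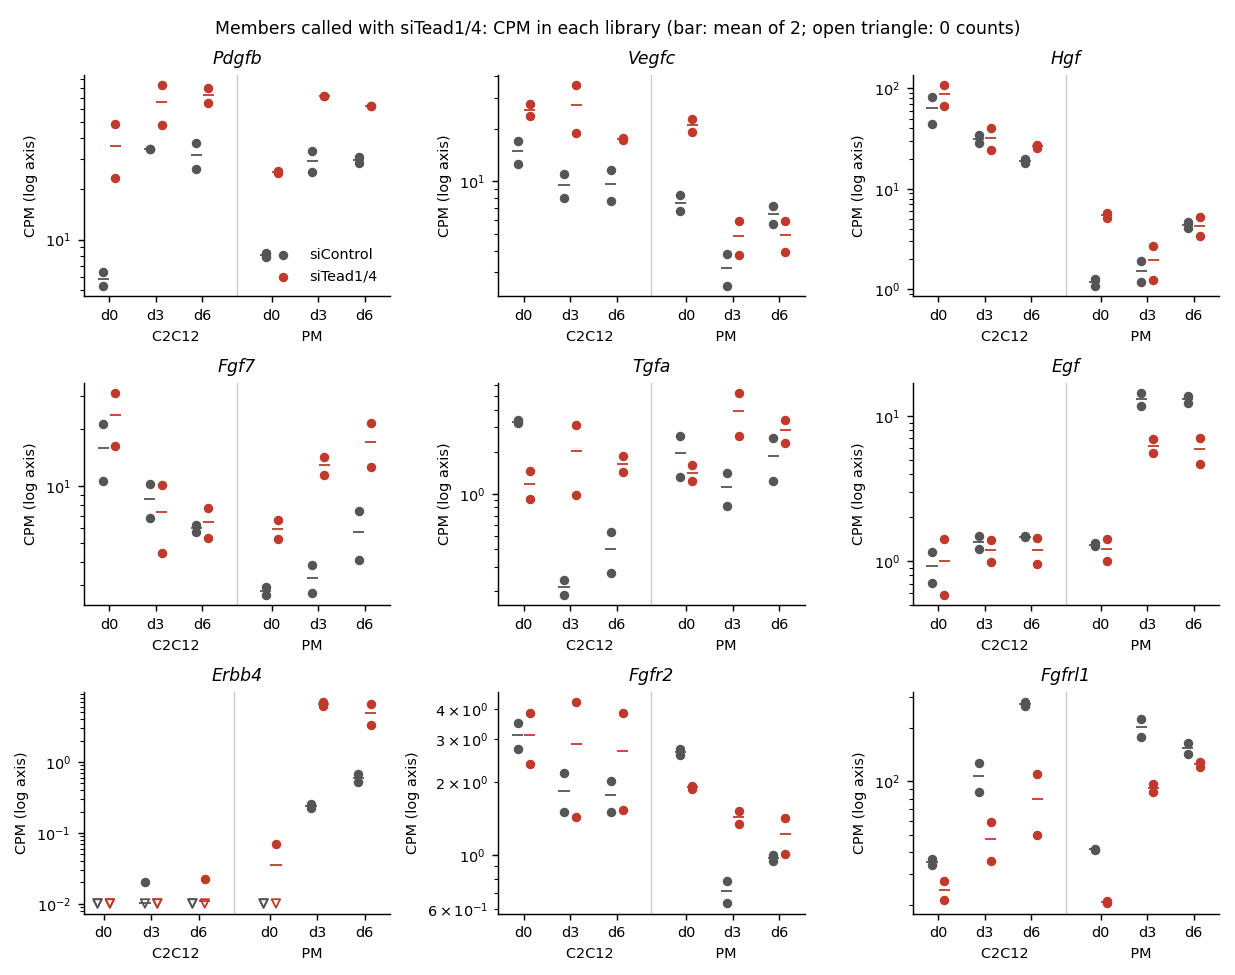
CPM on a log axis in each library for the 9 members called in any siTead1/4 comparison, at days 0, 3 and 6 in C2C12 cells and PMs, with siControl in grey, siTead1/4 in red, a bar for the mean of 2 libraries and an open triangle for a library with 0 counts. Pdgfb is higher with siTead1/4 in all 6 pairs of groups, and Erbb4 is at or near 0 in C2C12 cells and in day 0 PMs.

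The other ligands called higher in PMs in the fit without a replicate block were so at 1 or 2 of the days. Hgf was at 1.27 and 1.07 CPM with siControl and at 5.71 and 5.18 CPM with siTead1/4 at day 0 (log2 fold change 2.20, SE 0.38, adjusted p = 0.0083), and at 4.08 and 4.63 against 3.41 and 5.21 CPM at day 6. Vegfc (ENSMUSG00000031520, mm9 chr8:55162886-55271808), the ligand of the lymphatic receptor Flt4, was at 6.72 and 8.28 against 19.2 and 22.6 CPM at day 0 (log2 fold change 1.47, SE 0.28, adjusted p = 0.012). At day 6 its siTead1/4 libraries were at 5.89 and 3.94 CPM and overlapped the siControl libraries at 7.21 and 5.71 CPM. Leaving out 1 library raised the adjusted p above 0.05 for Hgf in 3 of 4 cases (0.055 to 0.073) and for Vegfc in all 4 (0.054 to 0.12).

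Fgf7 (ENSMUSG00000027208, mm9 chr2:125860394-125916921), a keratinocyte growth factor that signals through an isoform of Fgfr2, was at 2.72 and 3.84 CPM with siControl and at 11.5 and 14.3 CPM with siTead1/4 in PMs at day 3 (log2 fold change 1.96, SE 0.33, adjusted p = 0.007). At day 6 the values were 4.08 and 7.43 against 12.7 and 21.6 CPM, with a log2 fold change of 1.57 that lay at the threshold (adjusted p = 0.04996). The day 6 call was lost without 3 of the 4 libraries (adjusted p 0.056 to 0.23), and the day 3 call without the first siControl library (adjusted p = 0.073). At day 0 Fgf7 was at 2.67 and 2.93 against 5.29 and 6.66 CPM, a difference not called in the fit without a replicate block (adjusted p = 0.077).

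Egf was the ligand called lower with siTead1/4 in PMs in the fit without a replicate block. With the block, calls were added at day 0 for Fgf21 (mean 9.60 CPM against 25.9 CPM with siControl) and Fgf2 (0.0964 against 0.483 CPM). At day 3 Egf was at 11.8 and 14.3 CPM with siControl and at 6.91 and 5.58 CPM with siTead1/4. At day 6 it was at 12.3 and 13.6 against 7.07 and 4.68 CPM. The groups did not overlap at either day, and the log2 fold changes were -1.07 (SE 0.23, adjusted p = 0.021) and -1.14 (SE 0.23, adjusted p = 0.047). Leaving out any 1 library took the adjusted p to between 0.058 and 0.14 at day 3 and between 0.073 and 0.19 at day 6. With siTead1/4, Egf at days 3 and 6 was still above its day 0 values of 1.41 and 1.01 CPM.

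Tgfa (ENSMUSG00000029999, mm9 chr6:86145420-86225151) was the member called in C2C12 cells at day 3. It was at 0.189 and 0.243 CPM with siControl and at 0.979 and 3.10 CPM with siTead1/4 (log2 fold change 3.19, SE 0.58, adjusted p = 0.034). Both siTead1/4 libraries lay above the siControl libraries, the second further than the first, and the adjusted p was 0.11 to 0.24 without the second of them or without either siControl library. In PMs at day 3 Tgfa was at 0.814 and 1.42 CPM with siControl and at 2.62 and 5.28 CPM with siTead1/4, a difference of 1.80 that missed the threshold in the fit without a replicate block (adjusted p = 0.052).

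Of the receptors, Erbb4 had the largest fold change. In PMs at day 3 Erbb4 was at 0.253 and 0.227 CPM with siControl and at 7.08 and 6.25 CPM with siTead1/4, a log2 fold change of 4.77 (SE 0.52, adjusted p = 0.00135) that kept its call without any 1 library. At day 6 it was at 0.518 and 0.685 against 6.58 and 3.35 CPM, a log2 fold change of 3.04 (SE 0.48, adjusted p = 0.021), with an adjusted p of 0.079 to 0.12 in 3 of the 4 fits that left out a library. Among the 4 day 0 PM libraries only 1 held any Erbb4 count (0.0705 CPM, with siTead1/4).

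Fgfrl1 was the receptor called lower in the fit without a replicate block. In PMs it was at 178 and 225 CPM with siControl and at 87.5 and 96.2 CPM with siTead1/4 at day 3 (log2 fold change -1.14, SE 0.12, adjusted p = 8.3e-04). Without the second siControl library the change was -0.97, inside the fold threshold. At day 0 it was at 41.1 and 41.4 against 20.5 and 21.2 CPM, a change of -0.99 that passed the p threshold (0.002) but not that of fold change. In C2C12 cells Fgfrl1 was at 267 and 281 CPM with siControl and at 49.8 and 110 CPM with siTead1/4 at day 6, a change of -1.78 (SE 0.37) that edgeR did not call (adjusted p = 0.15). Fgfr2 was at 0.786 and 0.632 against 1.52 and 1.35 CPM in PMs at day 3 (log2 fold change 1.01, SE 0.26, adjusted p = 0.046), and lost its call without any 1 library (adjusted p 0.12 to 0.19).

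**Figure D4:**
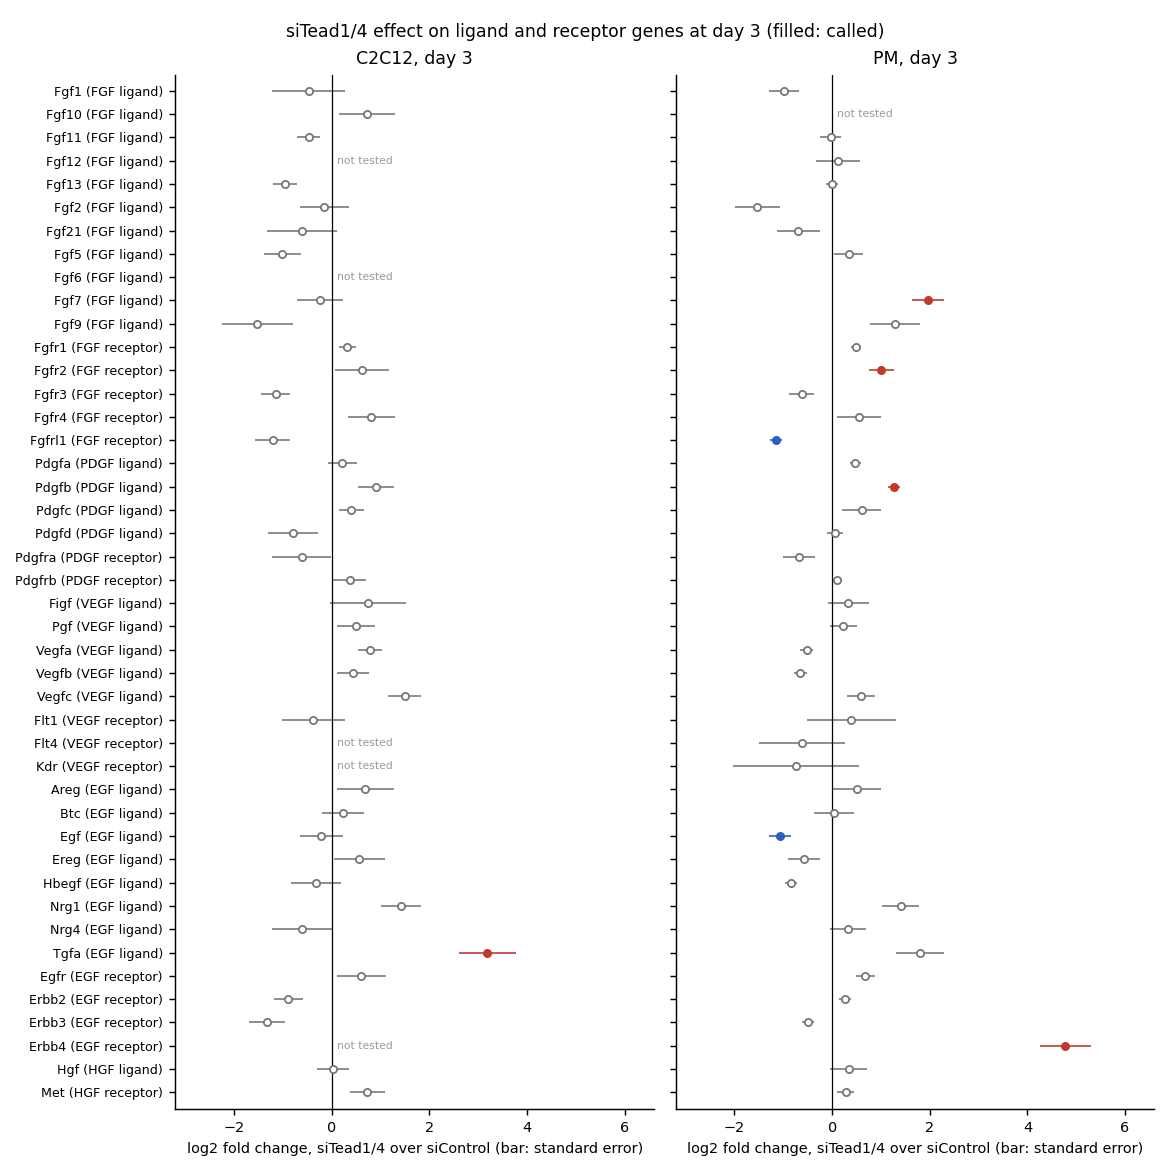
Log2 fold change of siTead1/4 over siControl at day 3, with standard errors, for every tested member in C2C12 cells (left) and PMs (right), filled where called (red higher, blue lower). Erbb4, Fgf7, Fgfr2 and Pdgfb are filled red and Egf and Fgfrl1 blue in PMs, and Tgfa is filled in C2C12 cells.

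Several abundant members passed the p threshold in PMs with changes smaller than the fold threshold. Fgfr1 was higher with siTead1/4 at days 0 and 3 (0.50 and 0.49 on the log2 scale, SE 0.10 each). Erbb3 was lower at days 0 and 3 (-0.53 and -0.49, SE 0.12 each), and so were Hbegf (-0.52 and -0.85) and Vegfb (-0.52 and -0.65). At day 3 Vegfa was lower by 0.52 and Pdgfa higher by 0.47.

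The siTead1/4 effect was then compared between cell types. With the filter on low counts no member differed at day 0 (background 0.00591% of all genes) or day 6 (0.0354%). Of the latter share, 0.0295% was more positive in PMs. At each of these days 6 members had an unadjusted p below 0.05, and DESeq2 called 1 at day 0 and none at day 6. Without the filter edgeR called members at days 0, 3 and 6. At day 3 Vegfa (ENSMUSG00000023951, mm9 chr17:46153942-46169326) differed, with a more negative effect in PMs, against 1.25% of all genes in either direction, 1.02% more positive and 0.236% more negative. In C2C12 cells it was at 187 and 129 CPM with siControl and 238 and 319 CPM with siTead1/4, and in PMs at 94.0 and 101 against 68.1 and 68.3 CPM. The effects differed by -1.33 on the log2 scale (SE 0.29, adjusted p = 0.0335), and without each of 6 of the 8 libraries in turn the adjusted p was 0.083 to 0.17. For Pdgfb the effects in the 2 cell types differed by -0.97 (SE 0.41) at day 0, 0.35 (SE 0.40) at day 3 and -0.11 (SE 0.40) at day 6, with adjusted p of 1, 0.81 and 1. Fgf7 at day 3 differed by 2.19 (SE 0.62, adjusted p = 0.10). Erbb4, with at most 1 count in each C2C12 library, was not called either, with adjusted p of 1, 0.328 and 1 at days 0, 3 and 6.

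Genes that act around the receptors were read from 4 lists. Of 20 tested downstream targets and feedback inhibitors, 3 rose and 5 fell in C2C12 cells at day 3, where 16.0% and 12.7% of all genes did, and 5 rose and 8 fell in PMs, where 17.5% and 14.9% did. Spry1, a Sprouty inhibitor, rose in both, by 6.95 and 1.93 on the log2 scale. The ETS factor Etv4, a target of FGF signalling, fell by 2.37 and 2.48, and the phosphatase Dusp5 fell by 2.90 and 1.07. At day 6, 2 rose and 7 fell in C2C12 cells (17.1% and 14.0% of all genes), and 8 rose and 5 fell in PMs (20.2% and 15.3%). The early response gene Ier3 fell in C2C12 cells, with a log2 fold change of -1.15, and rose in PMs, with one of 2.21. Egr1 rose in PMs by 2.57. The median log2 fold change of this list at day 3 was -0.53 in C2C12 cells and -0.77 in PMs, against -0.01 and 0.01 for all genes, and at day 6 it was -0.79 and -0.19, against -0.01 and 0.03. With siTead1/4, none of the 20 was called in C2C12 cells. In PMs Fos rose at day 0 (from 3.48 and 2.65 to 8.34 and 9.68 CPM), where 1.50% of all genes were called higher. Etv1 and Phlda1 rose at day 3 (log2 fold changes 1.21 and 1.06), where 2.10% were. At day 0 the median was -0.28 in C2C12 cells and 0.40 in PMs, against 0.02 and -0.01 for all genes. Changes were positive for 2 and 17 of the 20, and 3 and 11 had an unadjusted p below 0.05. None was called for the difference between cell types. At day 3 the median was 0.24 in both.

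The shares of all genes given for these days apply to the other 3 lists too (16.0% higher and 12.7% lower in C2C12 cells, 17.5% and 14.9% in PMs at day 3). Of 9 adaptors, Gab1 and Gab2 rose and Frs2 fell in C2C12 cells at day 3, with none called in PMs at days 3 or 6 and none with siTead1/4. Of the co-receptors, the glypican Gpc1 rose in both cell types (1.19 and 1.23 at day 3) and the syndecan Sdc3 fell in both (-1.97 and -2.50), while Sdc2 rose in C2C12 cells (2.06) and Sdc1 fell in PMs (-1.18), and none of 7 or 8 tested was called with siTead1/4. Among genes of ligand activation and shedding, 2 of 8 tested rose and 2 fell in C2C12 cells and 3 of 11 rose and 1 fell in PMs at day 3. Fgfbp1, which releases FGFs from matrix, rose by 7.91 in C2C12 cells and 2.35 in PMs at day 3. Spint1, an inhibitor of HGF-activating proteases, fell by 2.74 and 2.01. Hgfac, the HGF activator, rose with siTead1/4 in C2C12 cells at day 3, from 0.519 and 0.466 to 1.59 and 2.92 CPM. Fgfbp1 rose with siTead1/4 in PMs at day 6, from 15.1 and 18.5 to 65.1 and 71.4 CPM (log2 fold change 2.02, SE 0.29, adjusted p = 0.012).

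VEGF receptor values in PMs moved with the replicate. Kdr, the main signalling receptor for VEGF-A, had 55 and 4 counts in the first and second siControl libraries at day 0, 32 and 5 counts by day 3 and 20 and 7 counts by day 6. In the siTead1/4 libraries of the same days it had 57 and 7, 24 and 3, and 8 and 5 counts. Flt1 had 90 and 26, 176 and 50, and 130 and 27 counts with siControl. Flt4, the lymphatic receptor, had 21 and 3, 30 and 6, and 49 and 21. In each of the 6 PM groups the first replicate was the higher for all 3 receptors.

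Endothelial and Schwann cell marker sums were also higher in the first PM replicate, though in some groups only slightly. The 8 endothelial markers summed to 14.4 to 49.4 CPM in PMs and to 2.45 to 5.90 CPM in C2C12 cells, with Eng the most abundant, and the first PM replicate was higher than the second in all 6 groups. The 2 PM replicates were at 23.7 and 14.4 CPM with siControl at day 0 and at 39.7 and 38.1 CPM with siTead1/4 at day 6. The Schwann cell markers were also higher in the first PM replicate in all 6 groups. They were at 29.4 and 6.39 CPM with siControl at day 6, but at 28.02 and 27.56 CPM with siTead1/4 at day 0. Over days 0 to 6 in siControl PMs the endothelial sum rose with Eng, which was at 11.3 and 13.0 CPM at day 0 and at 36.4 and 38.3 CPM at day 6 (in order of size). Cldn5 was called higher as well, none of the 8 was called lower, and their median log2 fold change was -0.40. Cdh5, the endothelial cadherin, was at 0.958 to 3.60 CPM at day 0 and 3.20 to 7.02 CPM at day 6, while Pecam1 was at 1.01 to 2.90 CPM and then at 0.228 to 0.938 CPM, and neither was called. Emcn had no count in any C2C12 library and 1 to 98 counts in PM libraries, and 5 of the 8 markers were called higher in PMs than in C2C12 cells at day 0, against 16.3% of all genes. None of the 3 VEGF receptors was called with siTead1/4 or over differentiation in PMs, and the part of endothelial or Schwann cells in their values was not tested. Macrophage markers summed to at most 6.29 CPM in any library, with Cd68 or Itgam the most abundant and Ptprc at 0 to 3 counts.

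**Figure D5:**
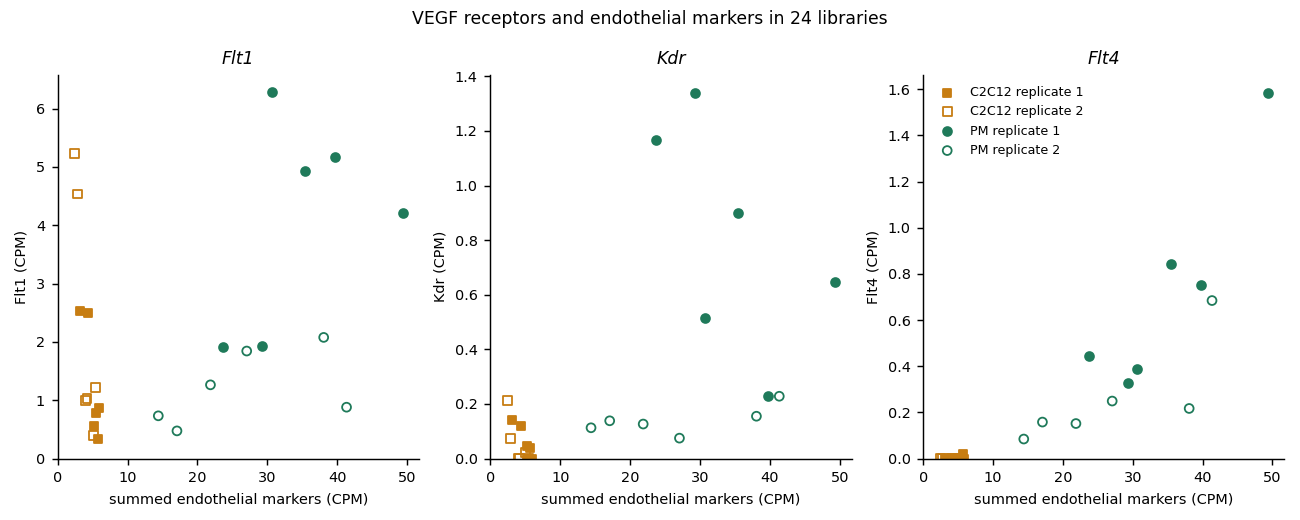
Level in CPM of Flt1, Kdr and Flt4 (vertical) against the summed CPM of 8 endothelial markers (horizontal) in all 24 libraries, with squares for C2C12 cells, circles for PMs, and filled symbols for the first replicate. Filled circles lie above the open circle of their own group in every panel, and C2C12 libraries sit below 6 CPM of endothelial markers.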

How the data were processed

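RNA from 24 mouse libraries (2 per group, 12 groups) was poly-T selected and prepared with an unstranded TruSeq kit, so reads of overlapping antisense genes cannot be told apart. The authors made the counts, whole reads per gene, and deposited them; per the submitters' processing notes they used CASAVA 1.8.2, TopHat2 2.0.10, Bowtie2 2.1.0, HTSeq 0.6.1, DESeq2 1.8.1 and build mm9, and the annotation release is not given in the sources used here. Deposited normalized signal values (counts divided by size factors and by gene length) were not tested. A deposited column of gene length (bases) gave values per kilobase. The 36 columns of 12 unlisted libraries were not used, nor were columns of the authors' own comparisons.

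Counts were filtered with filterByExpr, scaled by TMM and fitted with edgeR 4.0.16 (R 4.3.3, limma 3.58.1) by its quasi-likelihood test, within each cell type for siRNA and time and over all 24 libraries for differences between cell types. Benjamini-Hochberg adjustment ran over all tested genes (15303 in C2C12 cells, 16144 in PMs, 16926 jointly). A call needed an adjusted p below 0.05 and an absolute log2 fold change above 1. Standard errors are those implied by the test statistic. A group without counts was set to 3 counts in each library, and ratios with few counts carry a 95% interval, which covers counting error only. Median depth was 40147146 and 39204772 reads, and the common biological coefficient of variation was 0.242 in C2C12 cells and 0.150 in PMs. Named with values were every member called in a siTead1/4 comparison or in its difference between cell types, the 3 largest called rises and falls at days 3 and 6 in each cell type, and the ligand and receptor of highest level in each family and cell type; other members and genes named were chosen after their values were seen. Members, lists and this rule were chosen with earlier results of these data known. The labels call the replicates biological. Median-of-ratios scaling, no filter, DESeq2 1.42.0, fits to the libraries of 1 comparison, a replicate block and leaving out each library were tried. Fits that left out a library were followed by member only for members that met the naming rule. Ereg, Fgf5, Fgf11, Pdgfc and Pdgfra were among those not followed. The procedure was tested on simulated data.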

Additional observations from a re-analysis of the deposited data

Results flagged for a closer look

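The effect of siTead1/4 on Vegfa at day 3 differed between the cell types by -1.33 on the log2 scale (PMs minus C2C12 cells), in the test of the difference itself.

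The change of siControl cells from day 0 also differed between the cell types in that kind of test, and the values below are log2 differences, PMs minus C2C12 cells. At day 3 the ligands with a more positive change in PMs were Fgf1 by 4.78, Ereg by 3.14, Tgfa by 3.1, Btc by 2.9, Egf by 2.77 and Pdgfa by 1.27. The members with a more negative change in PMs were Fgf13 by -6.65, Fgf21 by -5.88, Fgfr4 by -5.69, Erbb3 by -4.35, Fgf5 by -1.79, Pdgfc by -1.65 and Fgf11 by -1.55. At day 6 the more positive changes in PMs were those of Ereg by 5.14, Areg by 3.85, Hgf by 3.62, Btc by 3.32, Fgf2 by 3.32, Tgfa by 3.02, Hbegf by 2.98, Fgf1 by 2.76, Egf by 2.64, Fgf7 by 2.45, Pdgfa by 1.36 and Vegfa by 1.11. The more negative changes in PMs at day 6 were those of Fgf13 by -7.62, Fgfr4 by -6.05, Fgf21 by -4.47, Erbb3 by -4.41, Fgf11 by -2.27 and Met by -1.68. Such a difference need not be a fall, as Fgf13 and Erbb3 rose in PMs too. Their day 0 means were 18.3 and 126 CPM in PMs and 0.023 and 6.05 CPM in C2C12 cells. Myog was also called higher in PMs at day 0, and the part of stage in these differences was not tested. The values for Fgf13 rest on very few counts in C2C12 cells at day 0, so their size is known only roughly. With 2 libraries in each group, single libraries were not examined as outliers.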

How the results depend on the processing

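Several counts of called members moved by more than 1.5 times, most of them with siTead1/4. Without the filter on low counts they were 10, 6 and 4 in C2C12 cells at days 0, 3 and 6 (1, 1 and 0 as reported), 8 and 10 in PMs at days 0 and 3 (3 and 6 as reported), 2 in C2C12 cells between days 3 and 6 (0), and 4, 4 and 1 for the difference of the siTead1/4 effect at days 0, 3 and 6 (0, 1 and 0). DESeq2 called 4, 6 and 1 in C2C12 cells, 7 in PMs at day 0, and 1 and 3 for the difference at days 0 and 3. Fitting only the libraries of a comparison gave 0 and 0 in C2C12 cells at days 0 and 3, 8 and 0 in PMs at days 0 and 6, 1 in PMs between days 3 and 6 (4 as reported) and 0 for the difference at day 3. Leaving out 1 library gave 0 to 1 in C2C12 cells at day 0 and at day 3, 1 to 3 in PMs at day 0, 3 to 4 at day 3 and 1 to 3 at day 6, 1 to 4 in PMs between days 3 and 6, and 0 to 2 and 0 to 1 for the difference at days 3 and 6. Median-of-ratios scaling kept every count within 1.5 times of that reported.

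Replicates share the numbers 1 and 2 in the labels, and the library codes in the titles run in sequence within each replicate set of a cell type. Same-numbered libraries had correlated deviations of -0.203 to 0.525 in C2C12 cells and 0.0695 to 0.539 in PMs, and no PM value was below 0. Within the 3 days, siControl and siTead1/4 PM libraries of the same number were at 0.414, 0.443 and 0.539. The labels name no shared culture or day, so the blocked fit was kept as an alternative. With a replicate block 8 members were called in PMs at day 0 (3 as reported; Btc, Fgf2, Fgf21, Fgf6 and Fgf7 were added) and 11 at day 3 (6 as reported; Fgf1, Fgf2 and Tgfa were among those added), and 4 for the difference at day 3. The other counts with the block stayed within 1.5 times.

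Flt1 in PMs at day 3 against day 0, not called at 1.15, turned to -0.14 without the first day 3 library, and leaving out other libraries gave up to 2.02. Of the other values for single members under the alternatives, 1430 kept their direction and side of the threshold, 101 passed it and 116 no longer did. The causes were not tested. Depth limits the values of members with few counts, such as Erbb4, Kdr and Flt4.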
